A study of Mus musculus with 2 samples.

Results

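Most of the genes described here encode proteins of adherens junctions and desmosomes, the structures that hold neighbouring epithelial cells together. Cdh17 and Epcam encode other adhesion proteins of epithelia. The genes were taken by symbol: Cdh1, Cdh17, Epcam, Ctnnb1, Ctnna1, Jup, Dsg2, Dsc2, Dsp and Pkp2. All 10 were found in the gene tables, which hold 43346 annotated mouse genes. RNA came from tissue labelled large intestine of C57BL/6J mice aged 8 weeks, the inbred strain most used as a laboratory standard. No genetic change or treatment is named in the labels, and the health state is given as unknown. The series is 1 group of 2 biological replicates, each labelled as a pool of male and female littermates, and both are filed under a single donor record. Polyadenylated RNA longer than 200 nt was read as strand-specific pairs of 76 nt. With 1 group there is no contrast between conditions, so levels are described for each library, and a difference between the libraries sets 1 library against 1, without a test.

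At an adherens junction, a classical cadherin such as E-cadherin binds its counterpart on the next cell. Its cytoplasmic tail holds beta-catenin or plakoglobin, and alpha-catenin ties that complex to actin filaments. At a desmosome, desmogleins and desmocollins take the place of the classical cadherin, plakoglobin and plakophilins bind their tails, and desmoplakin links the plaque to keratin filaments. In the gut these junctions keep the epithelial sheet intact while cells move from crypt to surface, and beta-catenin also carries the Wnt signal of crypt cells into the nucleus.

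The libraries held 48724618 and 55655330 expected counts on annotated genes, replicate 1 first here and in every pair of values below. Most of the markers listed for large intestine did not match the tissue label. Of 7 genes listed for large intestine surface cells, 5 lay below 1 TPM in both libraries, among them Car1 and Aqp8, and the sodium channel gene Scnn1g had 0 counts. The other 2, Muc3 (396 and 683 TPM) and Ms4a12 (13.1 and 12.5 TPM), were detected, and the list came to 409 and 696 TPM in sum. All 7 genes listed for small intestine were detected in both, at 11621 and 21974 TPM in sum. The sum hides both directions, since 3 of the 7 were lower in replicate 2 and 4 were higher. The labels' pooling of sexes was not matched either: 4 Y-linked genes held 2741 and 3 expected counts, and Xist held 17 and 12563. The unit TPM, which scales every library to the same sum, corrects for transcript length, so that levels of different genes can be compared. It is also a share, and the alpha-defensin genes named Defa took 1.76% of it in replicate 1 and 8.52% in replicate 2. Markers of epithelium (10 of 10 genes detected, 13296 and 12443 TPM in sum), smooth muscle (10 of 10, 3277 and 3832 TPM), fibroblasts (7 of 7, 545 and 530 TPM), endothelium (7 of 7, 72.2 and 62.8 TPM), nerve and glia (6 of 8, 28.3 and 37.9 TPM) and immune cells (8 of 8, 1834 and 1161 TPM) were present. All 8 markers of squamous epithelium were below 1 TPM in both libraries. In such bulk tissue, fewer cells of a type and less RNA per cell cannot be told apart.

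Each of the 10 reached 1 TPM in both libraries, against 29.9% of all annotated genes and 56.2% of the protein-coding ones. Each rested on at least 2606 expected counts in replicate 1 and 2268 in replicate 2. Together they came to 1671 and 1151 TPM, a mean of 1411 ± 368 (SD, n = 2).

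Epcam, which encodes the epithelial cell adhesion molecule, a surface glycoprotein of simple epithelia, had the highest level of the 10 (ENSMUSG00000045394.8, chromosome 17, 87635979 to 87651129, mm10). Its level was 561 TPM in replicate 1 against 399 in replicate 2, a mean of 480 ± 115 (SD, n = 2). By mean TPM it stood at rank 248 of all genes, and 1.87% of the detected genes were at its level or above. Genes of proteins that bind or cut EpCAM were abundant. The claudin gene Cldn7 was at 1043 and 1347 TPM, the protease inhibitor gene Spint2 at 893 and 1161 TPM, and the membrane protease gene St14 at 150 and 132 TPM. Epcam was higher in replicate 1, whereas Cldn7 and Spint2 were higher in replicate 2.

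The bases before the Epcam start site are shown because Epcam led the members and because E-boxes of the form CACCTG are letters that the repressors of the Snail and Zeb families can bind. The window of 250 bases (chr17:87635729-87635978, plus strand, GRCm38.p6, from RefSeq) is printed with both matches in capitals.
Epcam upstream window: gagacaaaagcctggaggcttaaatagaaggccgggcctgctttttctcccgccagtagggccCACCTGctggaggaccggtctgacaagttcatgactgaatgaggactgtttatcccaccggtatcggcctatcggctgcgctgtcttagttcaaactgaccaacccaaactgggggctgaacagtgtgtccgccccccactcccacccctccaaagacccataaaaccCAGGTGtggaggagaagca
The motif searched was CACCTG on either strand (CAGGTG on the printed one), and its matches begin at positions -187 and -19 from the start. Of all 32851 windows of this length in the table, 17.2% held at least 1 match and 2.06% at least 2. Windows were present for 4 of the 10 genes, and the remaining 4 windows, of Ctnnb1 (2 starts), Jup and Dsp, held none. A match is a description of the letters and not of binding. The repressor genes themselves were low: Snai1 was at 6.3 and 5.92 TPM, Zeb2 at 7.79 and 3.02 TPM, Zeb1 at 2.71 and 1.98 TPM, and Snai2 below 1 TPM in both libraries.

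The cadherin genes Cdh1 and Cdh17 were near each other in level. Cdh1 encodes E-cadherin, the classical cadherin of epithelia (ENSMUSG00000000303.8, chromosome 8, 106603351 to 106670246). Its level was 222 TPM in replicate 1 against 137 in replicate 2 (180 ± 60.2, SD, n = 2). Cdh17 encodes liver-intestine cadherin, which lacks the catenin-binding tail of classical cadherins (ENSMUSG00000028217.7, chromosome 4, 11758147 to 11817895). It was at 237 and 147 TPM (192 ± 63.8, SD, n = 2). Within each library Cdh17 stood just above Cdh1, at a ratio of 1.07 in replicate 1 and 1.07 in replicate 2, while Cdh17 was 1.61-fold and Cdh1 1.62-fold higher in replicate 1 than in replicate 2. Of the TPM of 6 classical cadherin genes, Cdh1 held 93.0% and 91.7%. The next was the endothelial cadherin gene Cdh5 at 10.6 and 7.28 TPM, beside endothelial markers such as Pecam1 at 15.9 and 13.0 TPM. The neural cadherin gene Cdh2 was below 1 TPM in both.

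Among the 3 catenin members, plakoglobin exceeded beta-catenin and alpha-E-catenin was the lowest. Jup encodes plakoglobin, the catenin found in both kinds of junction (ENSMUSG00000001552.10, chromosome 11, 100368958 to 100397763). Its level was 253 TPM in replicate 1 against 177 in replicate 2 (215 ± 53.7, SD, n = 2). Ctnnb1 encodes beta-catenin (ENSMUSG00000006932.12, chromosome 9, 120929216 to 120960507). It was at 165 and 136 TPM (151 ± 20.8, SD, n = 2), below Jup in each library by a factor of 1.53 and 1.30. Ctnna1 encodes alpha-E-catenin (ENSMUSG00000037815.6, chromosome 18, 35118859 to 35254779). It was at 77.5 and 60.6 TPM (69.1 ± 11.9, SD, n = 2), which is 0.468 and 0.446 of Ctnnb1. Ctnna1 held 99.5% ± 0.0510 (SD, n = 2) of the TPM of the alpha-catenin genes, since the neural gene Ctnna2 and the heart and testis gene Ctnna3 stayed at or below 0.3 TPM. The ratio of Cdh1 to Ctnnb1 was 1.34 in replicate 1 and 1.01 in replicate 2. Catenin genes are also active in muscle, vessels and stroma, so these ratios hold for the tissue and not for the epithelium alone.

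The desmosome members Dsg2, Dsc2, Dsp and Pkp2 were each lower in mean than the members described so far. Dsg2 encodes desmoglein 2, the desmoglein of simple epithelia (ENSMUSG00000044393.11, chromosome 18, 20558074 to 20604521). Its level was 56.9 TPM in replicate 1 against 30.9 in replicate 2 (43.9 ± 18.4, SD, n = 2). Dsc2 encodes its partner desmocollin 2 (ENSMUSG00000024331.7, chromosome 18, 20030633 to 20059554). It was at 39.7 and 26.4 TPM (33.1 ± 9.42, SD, n = 2). Dsg2 exceeded Dsc2 in both libraries, by a factor of 1.43 and 1.17. Dsp encodes desmoplakin, the link to keratin (ENSMUSG00000054889.5, chromosome 13, 38151294 to 38198577). It was at 35.7 and 21.4 TPM (28.5 ± 10.1, SD, n = 2). Pkp2 encodes plakophilin 2, a plaque protein that is also prominent in heart muscle (ENSMUSG00000041957.11, chromosome 16, 16213318 to 16272712). It was the lowest of the 10, at 22.0 and 14.7 TPM (18.3 ± 5.19, SD, n = 2). The 4 desmosome genes summed to 154 and 93.3 TPM, against 703 and 481 TPM for Cdh1, Cdh17, Ctnnb1 and Ctnna1. Jup, which serves both structures, was in neither sum, and Dsp stood at 0.141 and 0.120 of its level.

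**Figure D1:**
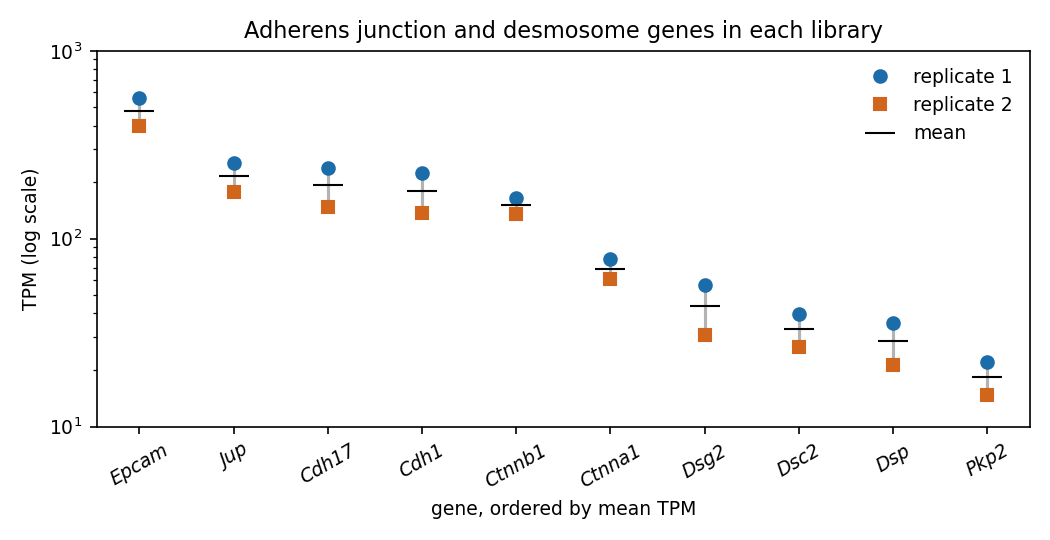
TPM of each gene on a log scale, with a circle for replicate 1, a square for replicate 2 and a dash for their mean, ordered by mean. Every square lies below its circle, and the order from Epcam at 561 and 399 TPM down to Pkp2 at 22.0 and 14.7 TPM is the same for circles and squares.

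By mean TPM the order was Epcam, Jup, Cdh17, Cdh1, Ctnnb1, Ctnna1, Dsg2, Dsc2, Dsp and Pkp2, and all 9 neighbouring pairs kept it in each library. For 6 of these 9 pairs the ranges over the libraries overlapped, although the first gene of each pair was the higher within each library, by a factor of 1.01 to 1.62. With every member lower in replicate 2, the range over the libraries holds that shared difference too. The 3 pairs with separate ranges were Epcam above Jup, Ctnnb1 above Ctnna1, and Ctnna1 above Dsg2.

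Transcript shares were as deposited, as percent of the gene's TPM, and were the authors' estimates, since most reads fit several transcripts of a gene. Epcam and Ctnna1 have 1 transcript each in the tables. Of the 8 members with more, all 8 had the same leading transcript in both libraries, against 88.3% of the 6751 genes that have 2 or more transcripts and average 5 TPM or above. The leading transcript held over 90% in both libraries for Cdh17 (Cdh17-201, 99.5% and 99.8%), Dsg2 (Dsg2-201, 99.6% and 99.2%), Pkp2 (Pkp2-201, 95.8% and 95.6%) and Jup (Jup-201, 91.2% and 96.2%). The other 4 genes were divided. For 3 members, Cdh1, Ctnnb1 and Dsc2, some transcript differed by at least 10 percentage points between the libraries, against 36.0% of all such genes.

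**Figure D2:**
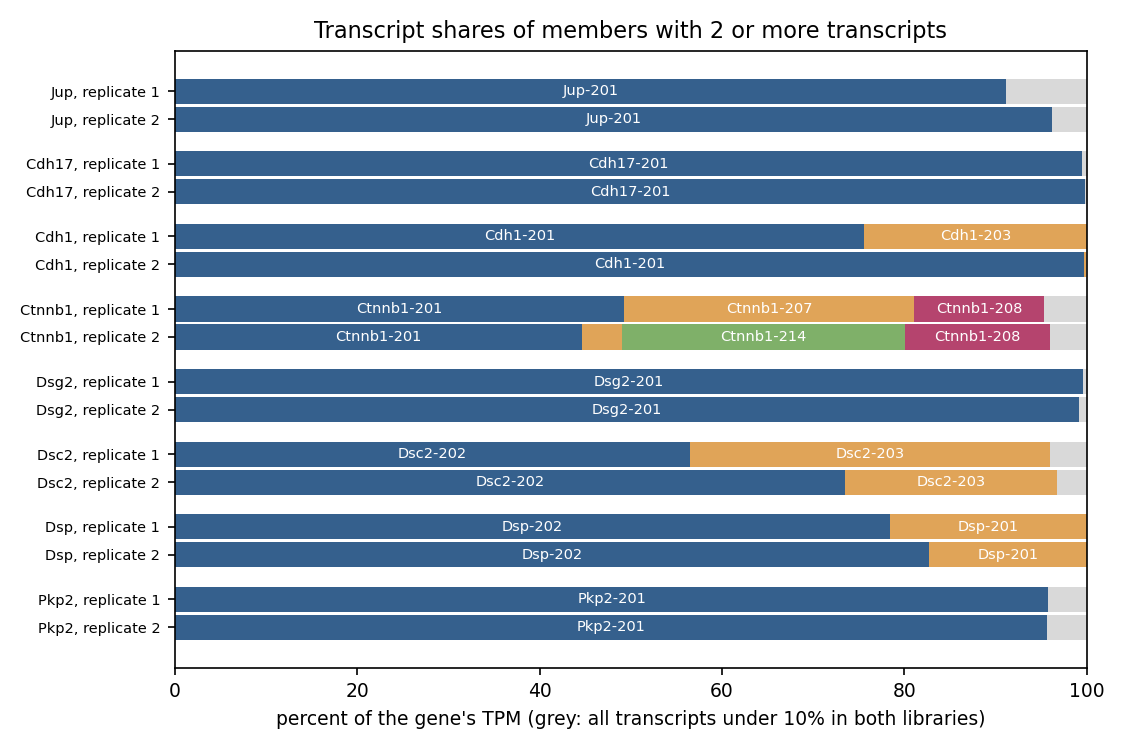
Percent of the gene's TPM held by each transcript, with an upper bar for replicate 1 and a lower bar for replicate 2 of each gene. Transcripts at 10% or more in either library are coloured and the rest are grey. Cdh1 and Ctnnb1 differ most between their bars, with Cdh1-203 at 24.4% and 0.26% and Ctnnb1-214 at 0% and 31.0%.

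Dsp was divided between a long and a short form in a like way in both libraries. Dsp-202 held 78.4% in replicate 1 and 82.7% in replicate 2, and Dsp-201 held 21.6% and 17.3%. Apart from their ends they use the same exons but leave 1 of them at different points. Dsp-201 reads on through it and has 1797 coding bases more, or 599 codons, from the exon that encodes the rod between the ends of desmoplakin. The splice point is shown because it alone separates their coding sequences. It follows chr13:38191829-38191858 (mm10, plus strand), the shared bases in lower case, and the capitals are the 30 bases that come next in each transcript of GENCODE M21.
Dsp-201: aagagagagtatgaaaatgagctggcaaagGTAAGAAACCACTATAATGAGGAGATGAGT
Dsp-202: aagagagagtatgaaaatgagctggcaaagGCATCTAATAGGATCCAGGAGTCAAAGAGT
The short form was the more abundant in each library, at 28.0 and 17.7 TPM against 7.7 and 3.7 TPM for the long form. The deposited bounds of the long form were 7.12 to 8.19 TPM in replicate 1 and 3.37 to 4.00 TPM in replicate 2, and those of the short form 26.9 to 28.5 and 17.0 to 18.1 TPM, so the bounds of neither form overlapped between the libraries. No source used here gives the confidence level of these bounds.

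Ctnnb1 was divided most. Ctnnb1-201, a full-length coding transcript, led with 49.3% in replicate 1 and 44.6% in replicate 2. The next transcripts differed between the libraries. Ctnnb1-207, a model of 714 bases and 5 exons with an incomplete coding sequence, came to 52.6 TPM (31.8%) in replicate 1 against 5.96 TPM (4.38%) in replicate 2. Ctnnb1-214, with the same coding sequence as Ctnnb1-201 but other ends, was estimated at 0 TPM in replicate 1 against 42.2 (31.0%) in replicate 2. Its model in the tables has 3422 bases, against 2702 in GENCODE M21. The deposited bounds did not overlap for either: 45.9 to 57.9 against 3.33 to 9.31 TPM for Ctnnb1-207, and an upper bound of 0.339 TPM in replicate 1 against 37.9 to 46.4 TPM in replicate 2 for Ctnnb1-214.

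Ctnnb1-208, annotated as a target of nonsense-mediated decay, the removal of RNAs with an early stop, was alike in both libraries at 14.3% and 16.0% (23.6 and 21.8 TPM). It departs from Ctnnb1-201 inside the coding sequence, where it leaves 1 exon 4 bases later and enters the next 3 bases later. The splice point follows chr9:120955943-120955972 (mm10, plus strand). It is shown because the difference in length shifts the reading frame, and the capitals mark the bases that differ.
Ctnnb1-201: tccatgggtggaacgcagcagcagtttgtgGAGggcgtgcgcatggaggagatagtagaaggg
Ctnnb1-208: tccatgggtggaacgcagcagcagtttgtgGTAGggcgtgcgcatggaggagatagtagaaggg
Reads across this point were not analysed here, and the share rests on the authors' estimate over the whole transcript.

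The transcript mix changed what the Ctnnb1 gene value showed. Its expected counts were 17243 in replicate 1 against 24339 in replicate 2, 1.41 times as many, yet its TPM was lower in replicate 2. The length that TPM divides by, averaged over the transcripts, was 2355 nt in replicate 1 and 3100 nt in replicate 2. Summed over transcripts with a complete coding sequence, Ctnnb1 came to 81.5 TPM in replicate 1 against 103 in replicate 2, the opposite order of the gene value. Ctnnb1 was the 1 member of 10 with more scaled counts and less TPM in replicate 2, against 18.7% of all genes tested. On the same sum over complete coding transcripts, the ratio of Jup to Ctnnb1 was 2.84 in replicate 1 and 1.66 in replicate 2 (2.25 ± 0.837, SD, n = 2). That of Cdh1 to Ctnnb1 was 2.73 and 1.33 (2.03 ± 0.986, SD, n = 2), and that of Ctnna1 to Ctnnb1 0.951 and 0.589 (0.770 ± 0.255, SD, n = 2). These ratios were higher than those of the gene values, and they lay further apart between the libraries. What set the transcript estimates of the libraries apart was not tested.

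In Cdh1, the difference lay outside the coding sequence. Cdh1-201 came to 168 TPM (75.6%) in replicate 1 against 137 TPM (99.7%) in replicate 2. Cdh1-203 came to 54.3 TPM (24.4%) in replicate 1 against 0.36 TPM (0.26%) in replicate 2, with deposited bounds of 48.8 to 57.9 and 0.0891 to 0.893 TPM. Both encode the same 2652 coding bases and share 14 exons. Cdh1-203 has an intron of 315 bases removed from the untranslated end and stops earlier. Nearly all of Cdh1 thus coded for full-length E-cadherin in both libraries, and the sum over complete coding transcripts was 222 and 137 TPM, as for the gene.

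In Dsc2, Dsc2-202 led with 22.4 TPM (56.5%) in replicate 1 and 19.4 TPM (73.5%) in replicate 2. It encodes the longer desmocollin tail. Dsc2-203, annotated as a target of nonsense-mediated decay, was at 15.7 TPM (39.5%) and 6.16 TPM (23.3%). Dsc2-201, which carries an alternative exon of 46 bases near the end (chromosome 18, 20032490 to 20032535) and encodes the shorter tail, was at 0.54 and 0.14 TPM. Transcripts with that exon, Dsc2-203 included, held 40.9% and 23.9% of the gene. Counting complete coding transcripts alone, Dsc2 was at 23.0 and 19.5 TPM, below Dsp in both libraries, and the ratio of Dsg2 to Dsc2 was 2.48 and 1.58, in place of 1.43 and 1.17.

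**Figure D3:**
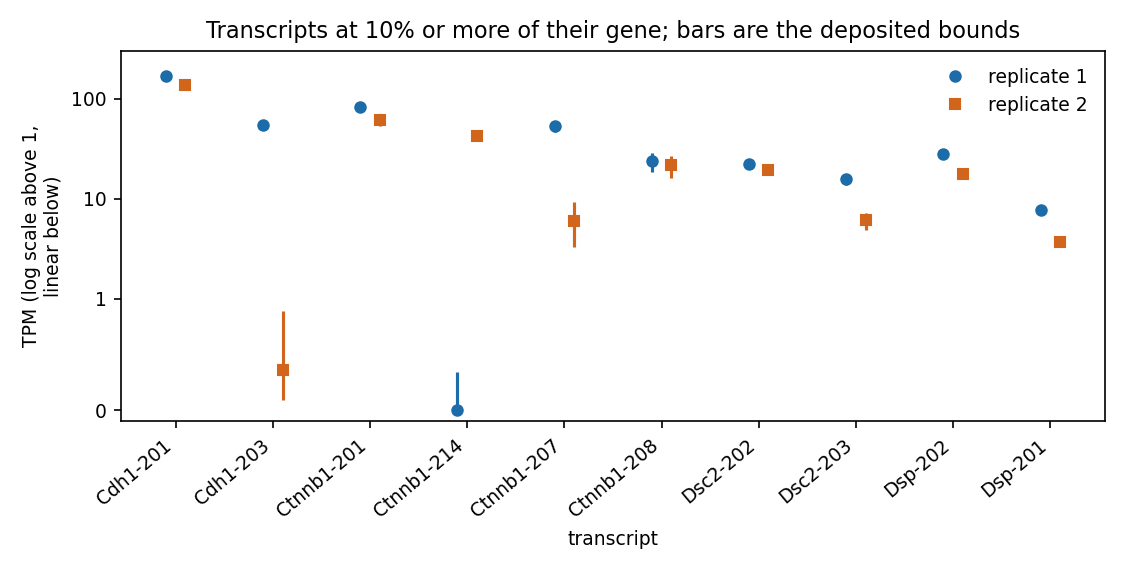
TPM of the transcripts at 10% or more of Cdh1, Ctnnb1, Dsc2 or Dsp, on a scale that is logarithmic above 1 TPM and linear below, with circles for replicate 1, squares for replicate 2 and vertical bars for the deposited bounds. Cdh1-203, Ctnnb1-214 and Ctnnb1-207 have bars far apart, at 54.3 and 0.36, 0 and 42.2, and 52.6 and 5.96 TPM, while those of Ctnnb1-208 overlap.

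Other genes of both junctions were looked up from lists. Of 17 further adherens junction genes, 11 reached 1 TPM in both libraries and 6 in neither. The highest were Nectin2, a nectin that starts cell contacts, at 134 and 106 TPM, Ctnnd1, whose product p120-catenin holds cadherins at the membrane, at 84.8 and 59.2 TPM, and Pkp4 at 48.1 and 27.1 TPM. Below 1 TPM were Ctnnd2, Ctnna2, Ctnna3, Nectin4, Cdh2 and Cdh4.

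Of 12 further desmosome genes, 4 reached 1 TPM in both libraries and 8 in neither. Perp, a membrane protein of desmosomes, was at 146 and 122 TPM, and Pkp3, a further plakophilin of simple epithelia, at 133 and 128 TPM. Pkp1 was at 15.1 and 12.4 TPM and the plakin gene Evpl at 6.46 and 5.63 TPM. Pkp2 therefore held 13.0% and 9.44% of the TPM of the plakophilin genes Pkp1 to Pkp3, far below Pkp3 and above Pkp1. The skin-type cadherin genes were near absent. Dsg3 and Dsc1 had 0 counts in both libraries, where 3 counts would be 0.0174 and 0.0133 TPM for Dsg3 and 0.0190 and 0.0146 TPM for Dsc1. Dsg1a, Dsg1b and Dsg1c, close copies whose reads may be split, had at most 9 counts each. Dsc3 had 12 counts in each library, and Dsg4 had the most, at 46 and 35 counts (0.32 and 0.19 TPM). Dsg2 held 99.4% and 99.2% of desmoglein TPM and Dsc2 99.9% and 99.8% of desmocollin TPM. The levels in these families are shown in the plot of all junction genes.

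**Figure D4:**
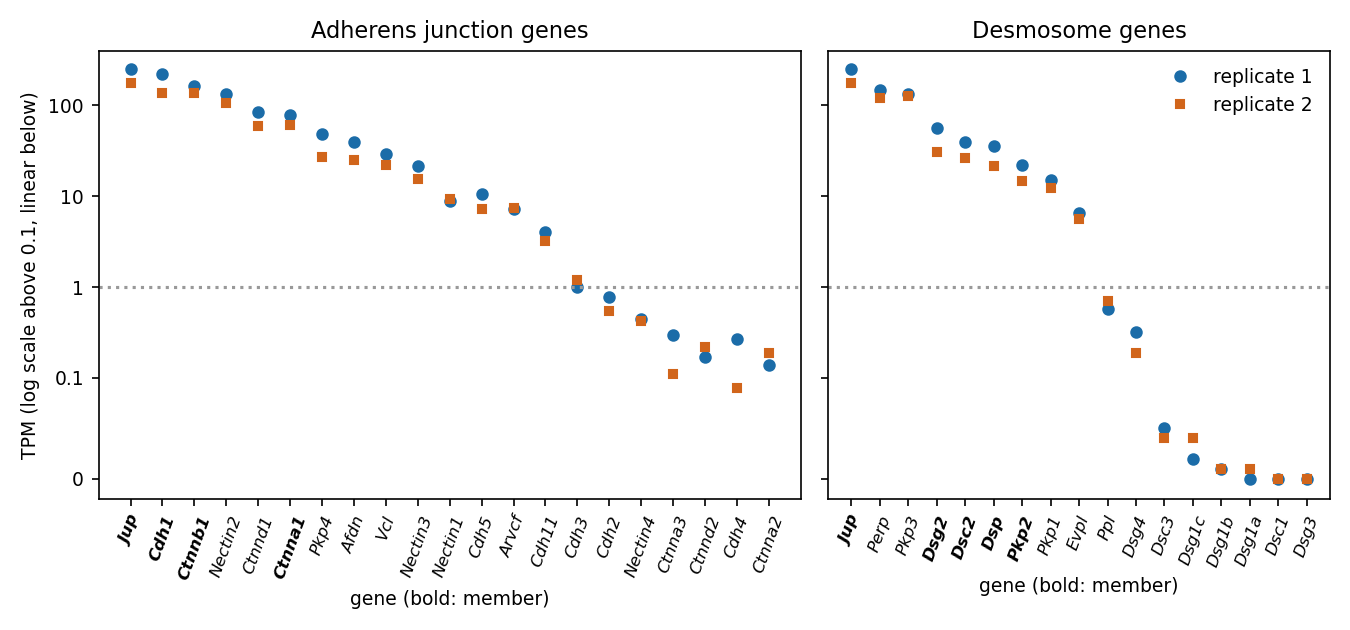
TPM of the listed adherens junction genes (left) and desmosome genes (right), on a scale that is logarithmic above 0.1 TPM and linear below, with circles for replicate 1, squares for replicate 2, member names in bold and a dotted line at 1 TPM. Skin-type genes such as Dsg3 and Dsc1 sit at 0, while Perp and Pkp3 lie above Dsg2, at 146 and 122 and at 133 and 128 TPM.

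All 10 members had a lower TPM in replicate 2 than in replicate 1. Differences are given as log2((TPM + 1) of replicate 2 / (TPM + 1) of replicate 1), over 13512 genes with a mean of at least 1 TPM, a scale that understates the change of low genes. On it 66.5% of all genes were lower in replicate 2. The members' values ran from -0.86 to -0.28 with a median of -0.56, and the median of all genes was -0.14. Dsg2 had the lowest value at -0.86, and 6.58% of all genes had one as low. Dsp was at -0.71, Cdh1 at -0.69 and Cdh17 at -0.69. Dsc2 was at -0.57, Pkp2 at -0.55, Jup at -0.51 and Epcam at -0.49. Ctnna1, at -0.35, and Ctnnb1, at -0.28, lay nearest to the median of all genes.

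None of the 10 members was 2-fold apart, against 5.64% of all genes. At 1.5-fold, 4 members were lower in replicate 2, Dsg2, Dsp, Cdh1 and Cdh17, against 14.5% of all genes. Dsc2 and Pkp2 lay at that limit, just past it before the pseudocount and short of it after. With counts scaled by TMM, a method that sets the bulk of genes level, 1 member (Dsg2) was 1.5-fold lower, against 8.64% of all genes. All 10 differed beyond the 95% limit of counting error, as did 65.4% of the genes with at least 20 counts in all, so this says little of the members. That comparison is between these libraries only. With TMM, the median of all genes was 0.01 and that of the members -0.39. On that scale 9 of 10 members were lower in replicate 2, against 48.6% of all genes, and Ctnnb1 was higher there at 0.29. The members' median lay 0.42 below that of all genes with TPM and 0.40 below with TMM.

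**Figure D5:**
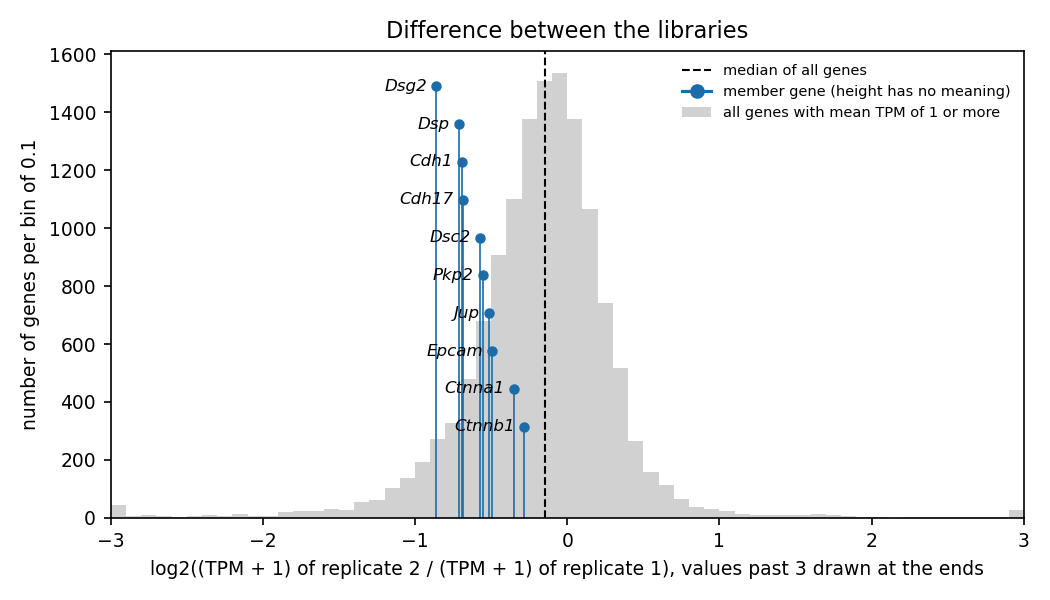
Number of genes per bin of the log2 ratio of replicate 2 over replicate 1 for 13512 genes (grey bars), with a marked line for each member and a dashed line at the median of all genes. All 10 member lines stand to the left of the dashed line at -0.14, from Dsg2 at -0.86 to Ctnnb1 at -0.28.

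The 10 epithelial markers differed in both directions between the libraries. They had a median log2 ratio of -0.05 with TPM, with 5 lower and 5 higher in replicate 2. With TMM their median was 0.11, and 2 of the 10 were lower, against 48.6% of all genes. Per unit of that marker sum, the members stood at 0.126 in replicate 1 and 0.0925 in replicate 2. Within the list, Vil1 (794 and 381 TPM) and Krt20 (700 and 335 TPM) were over 2-fold lower in replicate 2, beyond any member. Krt19 (2022 and 2059 TPM), Krt8 (2893 and 2591 TPM), Lgals4 (3610 and 3311 TPM) and Phgr1 (1806 and 1914 TPM) lay closer. Small intestine markers also differed, such as Lct at 152 and 9.94 TPM and Fabp6 at 477 and 5279 TPM. The Y-linked and Xist counts given above also differed between the libraries. The part of sex, cell maturity, gut position and cell makeup in the members' difference was not tested.

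Other junction genes are set beside the members here. The 11 further adherens junction genes with a mean of at least 1 TPM had a median log2 ratio of -0.38. By TPM, 8 were lower in replicate 2, near the 66.5% of all genes, among them Pkp4 at -0.81 and Ctnnd1 at -0.51. With TMM, 9 of the 11 were lower, against 48.6% of all genes, with Pkp4 at -0.26 and Ctnnd1 at -0.32. The expected counts of Pkp4 were close, at 5671 and 5451. The 4 further desmosome genes with such a mean had a median of -0.21, and all 4 were lower, Perp by -0.26 and Pkp3 by -0.05. Of 14 tight junction genes 11 were lower, with a median of -0.12, against -0.14 for all genes. They ran in both directions. The lowest were Cldn4 at -0.96, Tjp1, the scaffold gene that ties tight junctions to actin, at -0.81, Cldn23 at -0.76 and Cldn15 at -0.70. The 3 higher in replicate 2 were Marveld3 at 0.21, Cldn7 at 0.37 and Cldn2, at 35.6 and 93.2 TPM, at 1.36. With TMM the medians of the 3 lists were -0.22, -0.08 and 0.06, so the direction of the tight junction list changed with the scaling. On that scale all 4 desmosome genes and 6 of the 14 tight junction genes were lower in replicate 2. The difference between the members and these lists was not tested.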

How the data were processed

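A deposited table of genes and a deposited table of transcripts were used for each library, on mm10 with GENCODE M4 per the accompanying notes (aligner and quantification program: not given in the sources used here). In them the authors deposited expected counts, which need not be whole, and TPM, a share of all features corrected for effective length. The deposited FPKM values and posterior mean values served as alternatives. Transcript shares are the deposited percent of the gene's TPM. The bounds on TPM are a deposited signal column. The mm9 junction and contig lists were not used here.

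Symbols, positions and transcript models came from GENCODE M21, matched on identifiers without version (42462 genes had a symbol). Models of Ctnnb1-214, Dsp-201 and Ctnna1-201 have another length there than in the tables. TPM was not changed. Ratios used a pseudocount of 1 and a minimum mean of 1 TPM; counting error used a chi-square on rounded counts. TMM (edgeR 4.0.16) and size factors (DESeq2 1.42.0) were computed on rounded counts in R 4.3.3; the rest used Python 3.11.15. Replicate numbers are those of the labels. The ratio step was tested on simulated data. All members were named, as were their transcripts at 10% or more. In some lists, such as the further adherens junction genes, the 3 highest or the below-1-TPM genes were named. In others, the genes named were picked after their values were seen and are not the 3 highest. Among these are the tight junction, small intestine, epithelial and EpCAM partner lists. Members and lists were chosen with earlier results of these data known.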

Additional observations from a re-analysis of the deposited data

How the results depend on the processing

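The members' median log2 ratio of replicate 2 over replicate 1, -0.56 as reported, was -0.51 with a pseudocount of 5, -0.40 with FPKM, -0.39 with TMM, -0.39 with DESeq2 size factors and -0.52 over transcripts with a complete coding sequence, the last chosen after seeing the data. The count of members at least 2-fold apart was 0 under every scaling and pseudocount tried and 4 with 1.5-fold as the limit. The count at least 1.5-fold lower in replicate 2, also 4, was 1 (Dsg2) with FPKM, 1 with TMM and 1 with DESeq2 size factors, and between 4 and 6 with the other settings; these were chosen after seeing the data. The ratio of Ctnnb1 changed sign, to 0.29 with TMM, 0.28 with DESeq2 size factors and 0.33 over complete coding transcripts; of the 80 alternative ratios of single members, the other 77 were negative. The members' TPM sum ranged from 1151 to 1671 when either library was left out. Posterior means and rescaling without mitochondrial genes and spike-ins moved no member's level by more than its SD. With 2 libraries no spread of a difference can be given, and counts limit no member's level, the lowest count being 2268.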

Other observations

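Genes that act on these junctions were also read from lists. Of 11 genes of beta-catenin turnover and its nuclear partners, 10 were detected in both libraries, led by Gsk3a at 90.1 and 76.8 TPM, Csnk1a1 at 49.0 and 43.1 TPM and the Wnt target Axin2 at 30.5 and 30.1 TPM. Apc, a scaffold of the complex that marks beta-catenin for removal, stood at 7.58 TPM in replicate 1 against 3.23 in replicate 2. The log2 ratio of Apc was -1.02 with TPM and -0.56 with TMM, so its size depended on the scaling. Of 11 epithelial transcription factor genes 10 were detected in both, led by Hnf4a at 351 and 271 TPM, Elf3 at 230 and 265 TPM and Klf5 at 268 and 191 TPM. Klf4, a factor of mature gut epithelium, was at 140 and 61.5 TPM. Among cadherin-related genes, the brush border tip-link genes Cdhr5 (408 and 469 TPM) and Cdhr2 (483 and 310 TPM) exceeded Cdh1 and Cdh17 in both libraries, and they differed between the libraries in opposite directions. Of 6 striated muscle genes, the highest was Ckm at 29.9 and 41.4 TPM. Acta1 was at 3.61 and 26.4 TPM and the heart myosin gene Myh6 at 0.02 TPM in both. None of the differences between the libraries was tested.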
